A study of Mus musculus with 18 samples.

Results

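Older L1 elements are the long interspersed repeats of the L1 class that predate the L1 lineages active in mice today. They were taken here as the rows of class LINE/L1 whose names begin with neither L1Md nor L1_, which gave 120 of the 1365 repeat rows in each of 3 deposited tables. By name, 21 rows were Lx, 9 L1MA, 7 L1MB, 11 L1MC, 6 L1MD, 27 L1ME, 25 other L1M, 5 HAL1 and 9 of other names. The last set holds L1Lx_I to L1Lx_IV, LX3, L1VL1, L1P5, L1PB4 and X9_LINE. A row pools the reads of every genomic copy of a subfamily, so a row is no single locus and has no coordinates.

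The study asked how blocking HSP90, a chaperone that helps many regulatory proteins fold, alters RNA from repeats. Mouse RNA was sequenced in 18 libraries, 3 in each of 6 groups. Untreated ESCs (embryonic stem cells in 2i medium) were set against ESCs given the HSP90 inhibitor NVP-AUY922 at 100 nM for 24 h, both of the strain background 129S1/CASTEiJ. Untreated bone-marrow-derived macrophages of the background BALBC/C57BL6 were set against macrophages given 500 nM for 24 h. Untreated NPCs (neuronal progenitor cells) of the background 129S1/CASTEiJ were set against NPCs given 50 nM for 24 h. Cell type and dose, and for macrophages also strain, therefore change together and cannot be told apart. The labels name no separate cultures or animals, so the p-values measure the spread between libraries, which may be technical.

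An L1 element is a retrotransposon: its RNA is copied back into DNA by a reverse transcriptase that it encodes, and the copy is inserted at another site. Most inserts are cut short at the 5′ end, and old ones have collected mutations and no longer move. Lx elements spread in the rodent lineage before the L1Md elements. The L1M series is older and shared among mammals, and runs from L1MA, the youngest, to L1ME, the oldest. HAL1 elements are L1 relatives that keep the first reading frame and lack the reverse transcriptase. Old copies lie in introns and untranslated regions of many genes, so reads of an L1 transcript and reads of a host gene's transcript that holds a copy cannot be told apart in these rows.

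The tables give no value per library. Each gives a base mean (read counts divided by size factors, averaged over the 6 libraries), a log2 fold change between treated and untreated cells with its standard error (SE), and an adjusted p from DESeq2. The numerator of the contrast is not given. Rows are therefore called positive or negative after the sign in the table, and neither sign is read as more RNA in treated cells. The tables list repeats, so the labelled cell types were not checked here against marker genes. An adjusted p was given for 116 older L1 rows in ESCs and 118 in each of the other tables, and these were the rows tested. The untested rows had few reads: L1M2a1, L1M2b, L1M6B and LX3 in ESCs, L1M2a1 and LX3 in macrophages, and L1M2a1 and L1M2b in NPCs. In macrophages L1M2a1 and LX3 were listed at a base mean of 0.

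Of the base mean summed over all repeat rows, older L1 held 7.82% in ESCs, and 8.95% in macrophages beside 8.71% in NPCs. Lx rows carried most of it, with 61.3% of the older L1 sum in ESCs, 54.6% in macrophages and, for NPCs, 56.4%. The 60 rows from L1MA to L1ME held 1.61%, 2.52% and 2.48% of the base mean of all rows, in the same order. Within the L1 class, older rows held 36.7% in ESCs against 63.3% for the 30 young L1Md and L1_ rows, while in macrophages they held 55.8% and in NPCs 58.8%. These shares are not corrected for the copy number or length of a subfamily, and the precision of a share is unknown without values per library. The row with the most reads was Lx5, at a base mean of 25691 for ESCs, 20460 for macrophages and 26089 for NPCs per the authors' deposited tables, each table being normalised by itself.

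In macrophages, older L1 rows past the test lay mostly on the positive side. Of 118 tested rows, 29 were positive and 6 negative past an adjusted p of 0.05, which is 29.7% of the rows (24.6% positive and 5.08% negative). Over all 1255 rows tested in macrophages 25.8% passed, 13.3% positive and 12.5% negative. L1M elements made up 26 of the 35 (74.3%), near their 84 of the 118 rows tested (71.2%). The median log2 fold change of the older L1 rows was 0.05, against -0.01 over all tested rows. Of the 324 rows past the test over all repeats, 176 lay beyond 0.5 on the log2 scale on either side and 53 beyond 1. Of the 35 older L1 rows, 12 lay beyond 0.5 and 1 lay beyond 1. That row was L1MEg, an element of the oldest L1M group, at 1.07 ± 0.08 (SE) with an adjusted p of 3.12e-42 per the authors' deposited table, a 2.1-fold difference at a base mean of 553.

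In ESCs few older L1 rows passed the test, and their values were small. Of 116 tested rows 6 were positive and 9 negative, which is 12.9%. The background was 22.2% of 1132 tested rows, 10.2% positive and 12% negative. The median was 0.02, against 0.0019 over all rows. L1M elements made up 7 of the 15 rows past the test (46.7%), beside 82 of the 116 rows tested (70.7%). Only 3 of the 15 rows lay beyond 0.5, and none beyond 1. Over all repeats, 132 of the 251 rows past the test in ESCs lay beyond 0.5 and 36 beyond 1. Lx3_Mus, at 0.52 ± 0.08 and a base mean of 7339, had the smallest adjusted p, 1.88e-09 by DESeq2 per the authors' deposited table.

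In NPCs 1 older L1 row was positive and 6 were negative of 118 tested, or 5.93%, where 11.8% of all 1249 tested rows passed, 4.96% positive and 6.81% negative. The median was -0.0020, against 0.00089 over all rows. Without adjustment, 257 of all 1249 tested rows had a p under 0.05, 119 positive and 138 negative. Among the older L1 rows it was 14 of 118, 5 positive and 9 negative. Of the 7 older L1 rows past the adjusted test, 6 were L1M elements (85.7%), beside 83 of the 118 tested (70.3%). L1M3c had the largest absolute value, at -1.07 ± 0.25 and a base mean of only 59.2 per the authors' deposited table (adjusted p 0.000528, DESeq2). The errors were wider in this table, with a median SE of 0.23 over the older L1 rows, against 0.10 in ESCs and in macrophages.

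**Figure D1:**
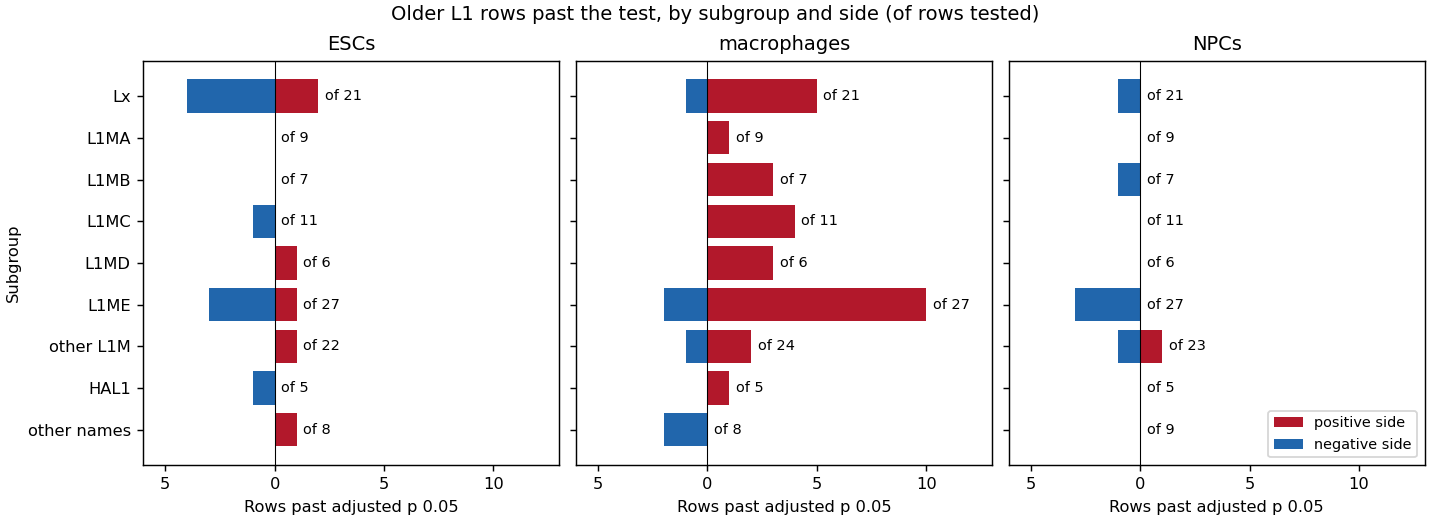
Number of older L1 rows past an adjusted p of 0.05 in each subgroup, with rows on the positive side of the authors' contrast drawn to the right and rows on the negative side to the left; the number beside each bar is the rows tested. In macrophages the L1MA to L1ME bars point mostly right, 21 rows against 2, and in NPCs the bars are short, with 1 row to the right and 6 to the left.

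Rows with many reads pass such a test more easily, and older L1 rows have many: their median base mean was 698 in ESCs against 121 over all rows, 546 against 74.2 in macrophages and 565 against 92.9 in NPCs. Among tested rows whose base mean reached 500, a level chosen after the values were seen, 15.5% of 71 older L1 rows passed in ESCs, against 31.1% of all 428. In macrophages it was 34.4% of 64, against 36.2% of 348. In NPCs it was 6.25% of 64, against 12.8% of 359. In macrophages the share of older L1 rows past the test was thus near the background at this level too, and in ESCs and NPCs it was lower than the background. No test of a list was made.

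**Figure D2:**
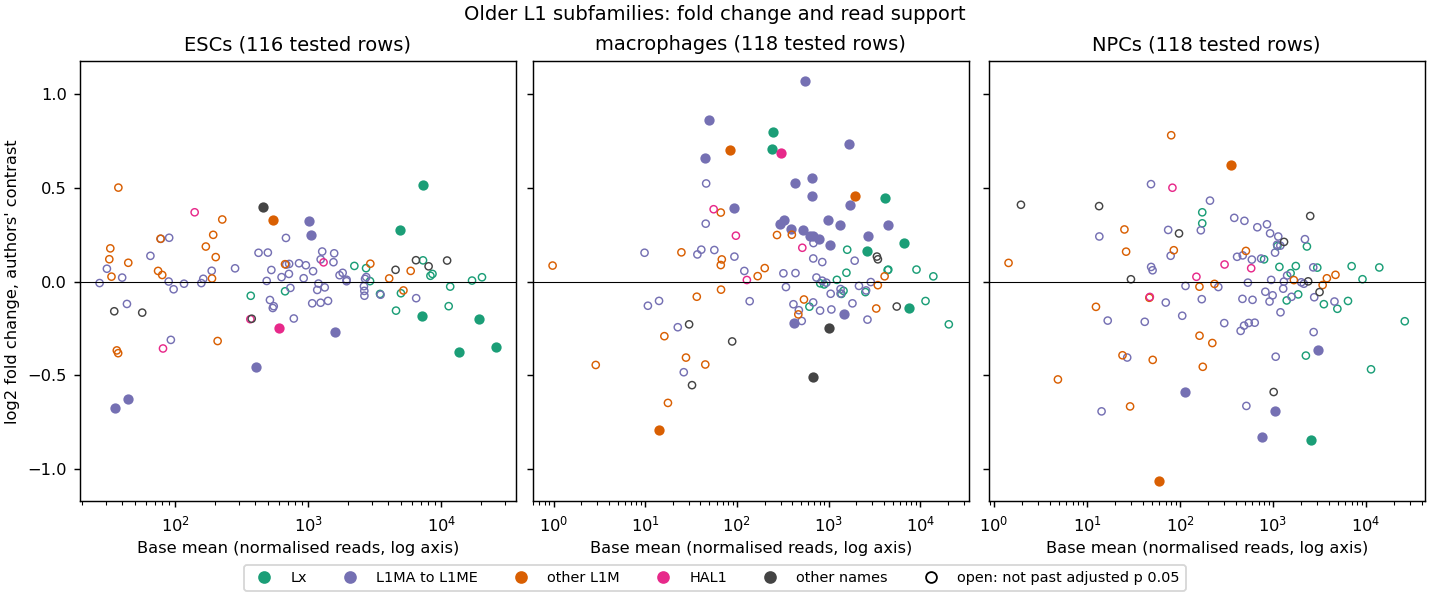
Log2 fold change of the authors' contrast against base mean (log axis) for each tested older L1 row in each cell type, coloured by subgroup; filled points passed an adjusted p of 0.05. Filled points reach 1.07 in macrophages and lie mostly above 0, and the row with the most reads in each panel, Lx5, lies below 0 at -0.35, -0.23 and -0.21 in ESCs, macrophages and NPCs.

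The Lx rows had the most reads of the older L1 elements and were the subgroup with the most rows past the test in ESCs. There 2 were positive and 4 negative of 21 tested, or 28.6% beside the background of 22.2%. At a base mean of 500 or more it was 30% beside 31.1%, so the count is near the background. Besides Lx3_Mus, Lx3A lay on the positive side at 0.28 ± 0.07 per the authors' deposited table (adjusted p 0.00172, DESeq2), while Lx3B and Lx3C of the same name series did not pass, at -0.07 ± 0.07 and 0.07 ± 0.08. Of the negative rows, Lx5, Lx4B and Lx7 were among the most abundant Lx rows. Lx2B2, at a base mean of 7174, lay near the Lx median of 7284. Lx5 lay at -0.35 ± 0.10 and Lx4B at -0.38 ± 0.10 in ESCs per the authors' deposited table, at base means of 25691 and 13672. Lx7 lay at -0.20 ± 0.06, and Lx2B2 at -0.18 ± 0.06 in that table. These are differences of 1.28-fold, 1.3-fold, 1.15-fold and 1.13-fold. Lx8 and Lx9, with base means of 20222 and 17019 in ESCs, lay at 0.02 ± 0.06 and 0.01 ± 0.06 per the authors' deposited table. Their 95% intervals ran from -0.09 to 0.14 and from -0.12 to 0.13, so changes beyond these bounds were not seen at this precision.

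In macrophages 5 Lx rows were positive and 1 negative of 21 tested, or 28.6% beside the background of 25.8%. At a base mean of 500 or more it was 21.1% beside 36.2%, below the background. Lx2A and Lx2A1, which have nearly the same name and may share reads, lay at 0.80 ± 0.17 and 0.71 ± 0.11 per the authors' deposited table, at base means of 250 and 244. These are 1.74-fold and 1.63-fold differences in rows with few reads for an Lx element. Lx6 had far more reads, with a base mean of 4112, and lay at 0.45 ± 0.06 per the authors' deposited table (1.36-fold, adjusted p 1.54e-13, DESeq2). Smaller values past the test were those of Lx8b at 0.20 ± 0.05, Lx5b at 0.16 ± 0.05 and Lx7 at -0.14 ± 0.06 per the authors' deposited table. Lx5 and Lx4B did not pass there, with -0.23 ± 0.13 and -0.10 ± 0.12. In NPCs Lx2B2 alone of the 21 Lx rows passed, at -0.85 ± 0.29 with an adjusted p of 0.0352 per the authors' deposited table. That is 4.76% of the Lx rows, beside 11.8% of all rows tested in NPCs. Lx errors were wide in NPCs: the median SE of Lx rows was 0.24, against 0.07 in ESCs and 0.08 in macrophages, and Lx4B at -0.47 ± 0.30 did not pass.

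The subgroups L1MA to L1MD, of middle age among these elements, had 11 positive and 0 negative of 33 tested rows in macrophages (DESeq2), or 33.3% beside the background of 25.8%. At a base mean of 500 or more it was 37% beside 36.2%, a share at the background. By the unadjusted p under 0.05 there were 12 positive and 2 negative, beside 221 positive and 215 negative of all 1255 tested rows. L1MA9 was the only L1MA row past the test, at 0.27 ± 0.09 per the authors' deposited table. L1MB1, L1MB7 and L1MB3 lay at 0.53 ± 0.08, 0.30 ± 0.06 and 0.24 ± 0.05 there, and L1MB7, at a base mean of 4437, was the most abundant row of its subgroup. L1MCa at 0.46 ± 0.13, L1MC5 at 0.41 ± 0.08, L1MC1 at 0.33 ± 0.12 and L1MC2 at 0.30 ± 0.10 passed among the 11 L1MC rows per the authors' deposited table. Of the 6 L1MD rows, 3 passed there: L1MD3 at 0.55 ± 0.08, L1MDa at 0.24 ± 0.08 and L1MD1 at 0.23 ± 0.09. These 11 rows had base means between 427 and 4437, and differences between 1.17-fold and 1.47-fold. Abundant rows of the same subgroups did not pass. In macrophages L1MA4 lay at -0.20 ± 0.10, L1MC4 at -0.00 ± 0.05 and L1MD at -0.01 ± 0.09 per the authors' deposited table. L1MC4a stood apart by its error: its SE was 0.33 at a base mean of 1924, while all other older L1 rows whose base mean reached 500 in that table had an SE of at most 0.13.

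Of the 33 tested rows of the same subgroups, 6.06% passed in ESCs and 3.03% in NPCs, beside 22.2% and 11.8% of all tested rows. In ESCs L1MC5 was negative at -0.27 ± 0.08 and L1MDa positive at 0.25 ± 0.09 per the authors' deposited table, and 0 of the 9 L1MA and 7 L1MB rows passed. DESeq2 gave an unadjusted p under 0.05 to 353 of all 1132 rows tested in ESCs. Of those L1MA rows it was 0, and of those L1MB rows 1. The most abundant rows in ESCs, L1MA4 at 0.02 ± 0.07, L1MB7 at -0.09 ± 0.07, L1MC3 at 0.01 ± 0.07 and L1MD at 0.10 ± 0.08, had 95% intervals whose outermost bound was 0.26 on the log2 scale per the authors' deposited table. In NPCs L1MB3 passed at -0.36 ± 0.12 (adjusted p 0.0328, DESeq2) per the authors' deposited table, and 0 of the L1MA, L1MC and L1MD rows did, adjusted or not. Of all 1249 rows tested in NPCs, 257 had an unadjusted DESeq2 p under 0.05. L1MA4, L1MC3, L1MC4 and L1MD lay at -0.27 ± 0.22, -0.08 ± 0.21, -0.01 ± 0.15 and -0.00 ± 0.12 in NPCs.

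L1ME, the oldest and largest L1M subgroup, held the largest values in macrophages, where 10 rows were positive and 2 negative of 27. After L1MEg came L1MEg2 at 0.86 ± 0.27, L1MEd at 0.73 ± 0.11 and L1MEj at 0.66 ± 0.21 per the authors' deposited table. Of these, L1MEd rests on a base mean of 1670 and the other two on base means of 50.1 and 45.2. L1MEb at 0.39 ± 0.15, L1ME3Cz at 0.33 ± 0.12, L1ME3F at 0.31 ± 0.11, L1ME3 at 0.28 ± 0.09, L1ME2 at 0.24 ± 0.07 and L1ME4b at 0.20 ± 0.08 completed the positive rows per the authors' deposited table. The negative rows were L1ME1 at -0.17 ± 0.06 and L1ME2z at -0.22 ± 0.09 there. L1ME2z, L1ME4b and the L1M3a row given below fall outside the naming rule and are named to complete the counts, and Lx3B, Lx3C, Lx8, Lx9 and L1MC4a were also chosen after their values were seen. Centring on the median of all tested rows ended the calls of L1ME2z, L1M3a and Lx7 in macrophages, with adjusted p of 0.0679, 0.0513 and 0.0791. The share of L1ME rows past the test was 44.4% in macrophages, 14.8% in ESCs and 11.1% in NPCs, beside the backgrounds of 25.8%, 22.2% and 11.8% given above. At a base mean of 500 or more it was 71.4% of only 7 rows in macrophages, beside 36.2% of all rows. In ESCs it was 10% of 10 rows beside 31.1%, and in NPCs 22.2% of 9 rows beside 12.8%. These shares of few rows were not tested.

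In ESCs 1 L1ME row was positive and 3 were negative. L1ME2 lay at 0.32 ± 0.08 and L1ME3B at -0.45 ± 0.12 per the authors' deposited table (DESeq2 adjusted p 0.00117 and 0.00208). L1MEg2 at -0.68 ± 0.26 and L1MEa at -0.63 ± 0.24 had base means of 35.1 and 44.1 there and adjusted p of 0.0449 and 0.047, close to the threshold. Adjusted over every row with a p, they did not pass (0.0529 and 0.0555), nor did MusHAL1 in ESCs (0.0545), L1ME2z and Lx7 in macrophages (0.0506 and 0.0501) or L1MEb in NPCs (0.0506). In NPCs 3 L1ME rows passed, all negative. L1ME3A lay at -0.83 ± 0.14, L1ME2 at -0.69 ± 0.12 and L1MEb at -0.59 ± 0.21 per the authors' deposited table. L1MEg, the row with the largest value in macrophages, lay at 0.02 ± 0.11 in ESCs and at -0.66 ± 0.25 in NPCs, where it missed the threshold with an adjusted p of 0.0568 per the authors' deposited table.

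The remaining 25 L1M rows are L1M itself and L1M1 to L1M8 with their variants, and many have few reads, with median base means of 79.7 for ESCs, 67.1 for macrophages and 80.3 for NPCs. In macrophages 2 were positive and 1 negative of 24, or 12.5% beside the background of 25.8%. L1M3, with a base mean of 1941, lay at 0.46 ± 0.06 per the authors' deposited table (adjusted p 1.7e-11, DESeq2). L1M3de lay at 0.70 ± 0.17 and L1M3a at -0.79 ± 0.31, the latter at a base mean of only 14.2, in that table. In ESCs L1M4b alone of 22 passed (4.55%, beside 22.2% of all rows), at 0.33 ± 0.10 per the authors' deposited table. L1M4b also lay on the positive side in NPCs at 0.62 ± 0.19, and L1M3c was the row on the negative side there. Together they were 8.7% of the tested rows of this set in NPCs, beside 11.8% of all rows. L1M2 and L1M4, the most abundant rows of this set, did not pass in any table. Their values per the authors' deposited tables for ESCs, macrophages and NPCs were 0.06 ± 0.07, -0.02 ± 0.07 and 0.02 ± 0.23 for L1M2, and -0.05 ± 0.07, 0.03 ± 0.05 and 0.04 ± 0.11 for L1M4.

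Of the 5 HAL1 rows, HAL1M8 was positive in macrophages at 0.69 ± 0.11 (1.61-fold, adjusted p 2.94e-08, DESeq2) per the authors' deposited table. It alone passed there, or 20% of the HAL1 rows beside 25.8% of all tested rows. All 5 lay above 0 in macrophages, as did 610 of all 1255 tested rows. Of the 5, 3 had an unadjusted p under 0.05, as did 436 of the 1255. MusHAL1 was negative in ESCs at -0.25 ± 0.10 with a DESeq2 adjusted p of 0.0462, close to the threshold, per the authors' deposited table. It alone passed in ESCs, or 20% of the HAL1 rows beside 22.2% of all tested rows. In NPCs 0 of 5 passed, adjusted or not. Of all 1249 rows tested in NPCs 11.8% passed, and 257 had an unadjusted p under 0.05. HAL1 itself, the most abundant row, lay at 0.10 ± 0.09, 0.18 ± 0.08 and 0.07 ± 0.19 per the authors' deposited tables for ESCs, macrophages and NPCs and passed in none.

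Among the rows of other names, L1VL1 was positive in ESCs at 0.40 ± 0.11, and X9_LINE and L1Lx_II were negative in macrophages at -0.51 ± 0.10 and -0.25 ± 0.09, per the authors' deposited tables. That was 12.5% of the tested rows of this set in ESCs and 25% in macrophages, beside 22.2% and 25.8% of all rows. In NPCs 0 of these 9 rows passed, beside 11.8% of all rows, and 1 had an unadjusted p under 0.05, beside 257 of all 1249. L1Lx_I, the most abundant of them in ESCs, lay at 0.11 ± 0.08 in ESCs, 0.12 ± 0.07 in macrophages and -0.06 ± 0.29 in NPCs per the authors' deposited tables. L1Lx_IV, the most abundant in macrophages, lay at -0.13 ± 0.06 there, at 0.08 ± 0.08 in ESCs and at 0.35 ± 0.32 in NPCs, and did not pass.

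**Figure D3:**
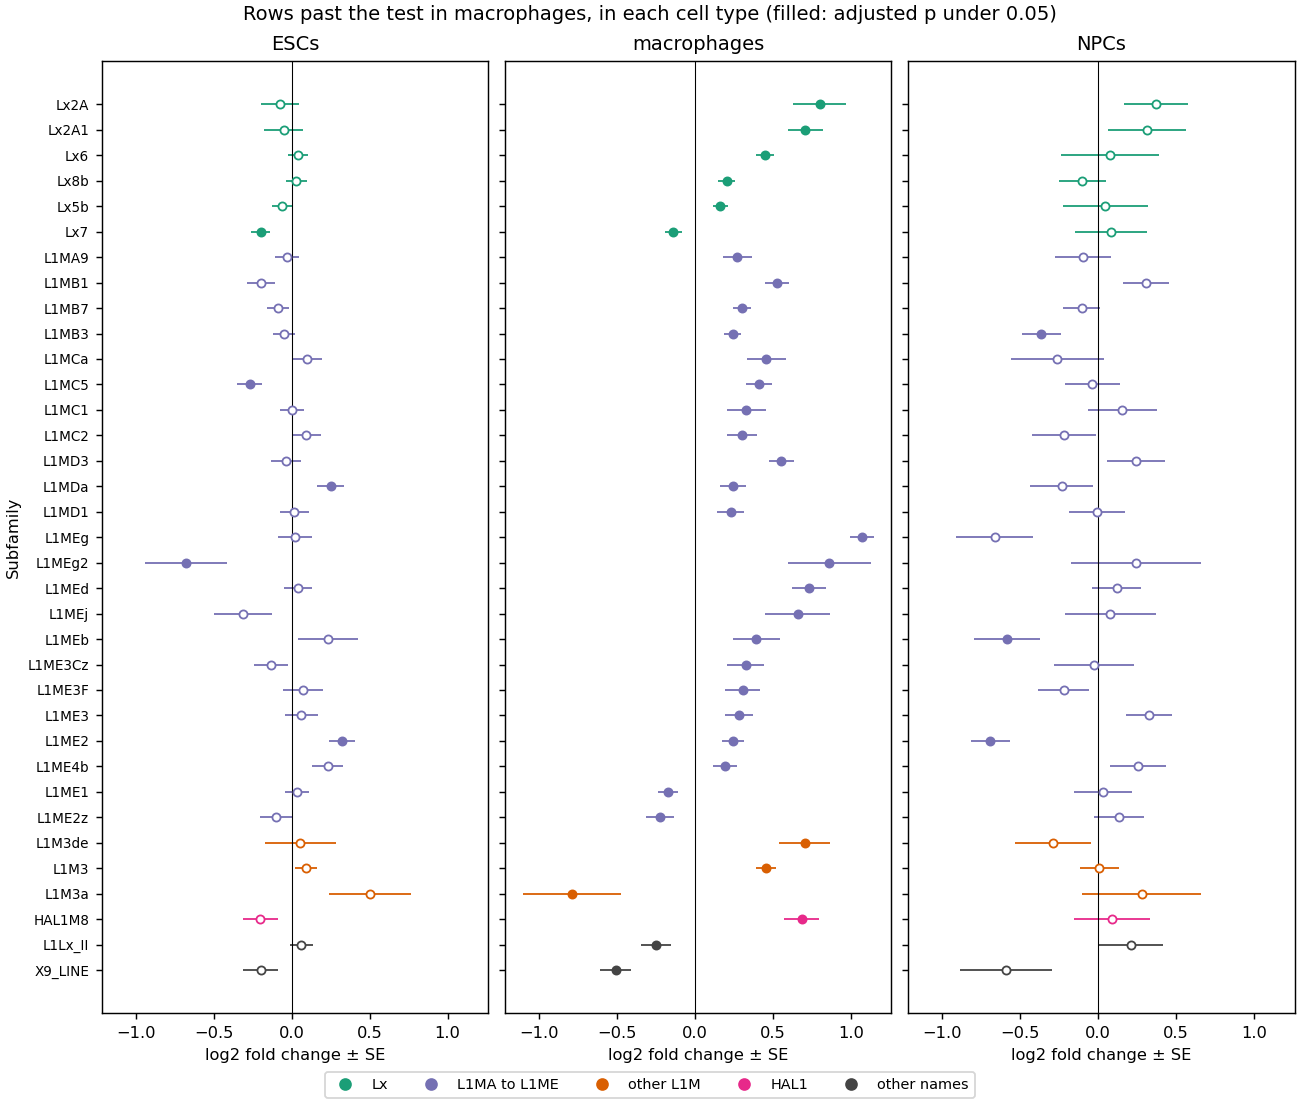
Log2 fold change of the authors' contrast with its SE (horizontal bar) for the 35 older L1 rows past an adjusted p of 0.05 in macrophages, shown in each of the 3 cell types; filled points passed in that cell type. The macrophage values run from -0.79 to 1.07, and most of the same rows are open and near 0 in ESCs and have wide errors in NPCs. Choosing rows by their macrophage test favours larger values in macrophages than in the other cell types.

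Over the 3 tables, 47 of the 120 rows passed at least once (39.2%) and 73 never did. Of the 47, 9 passed in more than 1 table (19.1%), and 1 of these, L1ME2, passed in all 3. Among all 1365 repeat rows 538 passed at least once (39.4%), and 151 of them in more than 1 table (28.1%). On the same side of both contrasts were L1M4b in ESCs and NPCs, L1MDa and Lx7 in ESCs and macrophages, and Lx2B2 in ESCs and NPCs. On opposite sides were L1MC5 and L1MEg2, negative in ESCs and positive in macrophages, and L1MB3 and L1MEb, positive in macrophages and negative in NPCs. L1ME2 was positive in ESCs and macrophages and negative in NPCs. Same and opposite hold only if the 3 tables take the same group as the numerator, which is not given. Across rows tested in both tables, Spearman's rho of the log2 fold changes was -0.04 between ESCs and macrophages (116 rows), 0.04 between ESCs and NPCs (116) and 0.09 between macrophages and NPCs (117). Over all repeat rows it was 0.14, 0.10 and 0.20. These are descriptions: no library is shared between tables, but related rows can share reads.

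The difference between 2 cell types was then computed for each row from the log2 fold changes and SEs of both tables, with a normal p (two-sided) adjusted by Benjamini-Hochberg over all repeat rows tested in both. Between ESCs and macrophages 22 of 116 older L1 rows differed (19%), beside 23.7% of all 1124 rows. If both tables have the same numerator, the macrophage value was higher in 17 of the 22. The sides of differing rows were not counted over all repeats for any pair, so a lean to 1 side is not read as particular to older L1. L1MEg, L1MB1, L1MC5 and HAL1M8 had the smallest adjusted p, with ESC minus macrophage values of -1.05 ± 0.13, -0.73 ± 0.12, -0.68 ± 0.12 and -0.89 ± 0.16. The row with the largest difference was L1MEg2, at -1.54 ± 0.37, with base means of 35.1 and 50.1. Lx3_Mus was the foremost row with the higher value in ESCs, at 0.47 ± 0.12 (adjusted p 0.00144 of this normal test).

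Between ESCs and NPCs 5 of 116 rows differed (4.31%, beside 12.6% of 1126). L1ME2 had the smallest adjusted p, at 1.02 ± 0.15, and L1M3c the largest difference, at 1.17 ± 0.35. Between macrophages and NPCs 9 of 117 rows differed (7.69%, beside 12.4% of 1222), all with the higher value in macrophages if both tables have the same numerator. With the NPC sign turned, 16 of 117 differed (13.7%, beside 19.9% of all rows), 11 with the higher value in macrophages. L1MEg differed by 1.73 ± 0.26 and L1ME2 by 0.93 ± 0.14. L1MB3, whose base means of 2688 and 3052 are the largest among rows that passed in both of these tables, differed by 0.61 ± 0.13. The same turn of the ESC sign gave 27 rows between ESCs and macrophages (23.3%, beside 27.9%), 21 with the higher value in macrophages. Between ESCs and NPCs it gave 8 (6.9%, beside 16.2%).

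Several of the differences named here and in the closing section did not pass with the sign of 1 table turned. Between ESCs and macrophages these were L1MC5, L1MEg2, L1MEj, L1MB7 and L1MB3, with adjusted p of 0.401, 0.757, 0.382, 0.0668 and 0.0847. Between ESCs and NPCs they were L1ME2, L1MEb and L1MB1, at 0.08, 0.473 and 0.776. Between macrophages and NPCs L1MEg, L1M3de and L1MB7 did not pass, at 0.308, 0.376 and 0.359, and neither did L1MB3 and L1MEb, at 0.623 and 0.685, whose differences also changed sign. L1ME2 and L1ME3A changed sign between macrophages and NPCs and passed on the other side, as did Lx3_Mus between ESCs and macrophages.

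**Figure D4:**
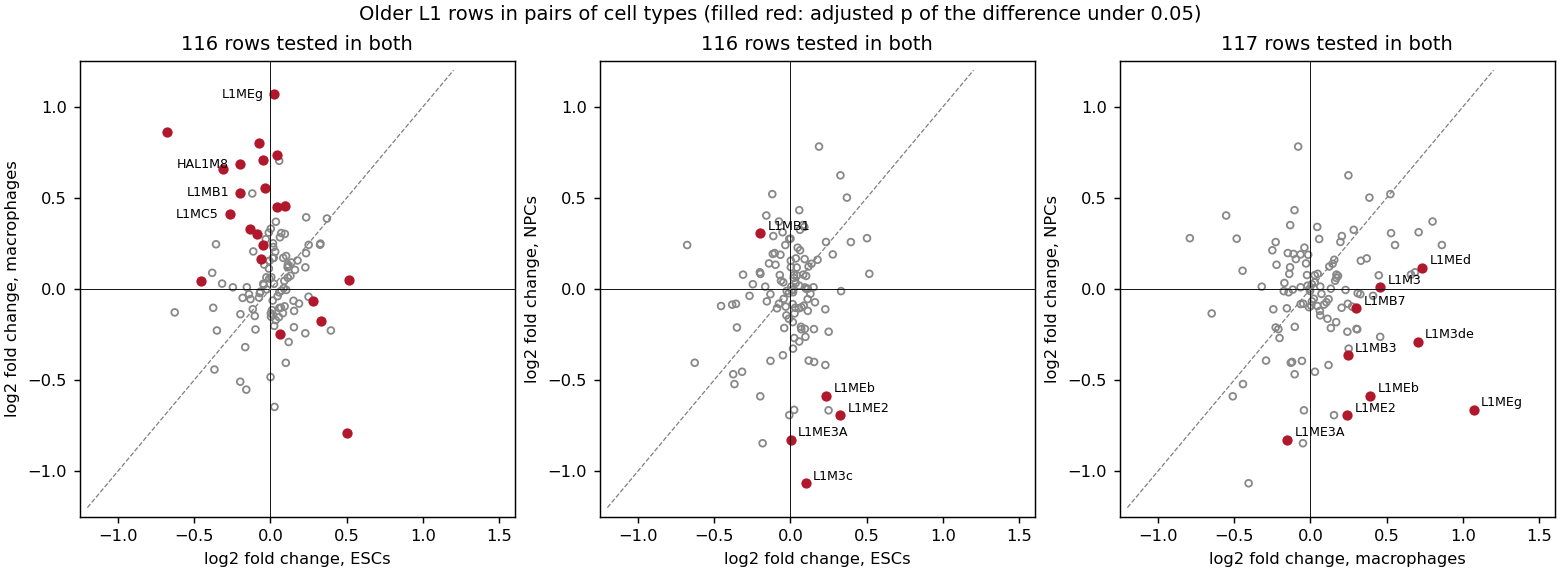
Log2 fold change of each older L1 row in one cell type against that in another, for the 3 pairs; the dashed line marks equal values and filled red points are rows whose difference had an adjusted p under 0.05. In the left panel 22 of 116 rows are filled, 17 of them above the line, and in the right panel all 9 filled rows lie below it. The panels take the tables as oriented alike, and the sides of differing rows over all repeats were not counted.

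The other L1 and LINE rows give a scale for these values. Of the 30 young L1 rows, which include the elements that still move in mice, 2 were positive and 7 negative in ESCs (30%), 7 and 4 in macrophages (36.7%), and 0 and 1 in NPCs (3.33%). Their medians were -0.04, 0.06 and -0.09 in that order. Other LINE classes, still older and with few reads, had 2 positive and 1 negative of 36 rows in ESCs (8.33%). In macrophages it was 3 and 7 of 42 (23.8%), and in NPCs 1 and 4 of 42 (11.9%). The medians of these rows were 0.03, -0.07 and -0.13. Over all tested rows 22.2%, 25.8% and 11.8% passed, so the other LINE shares in macrophages and NPCs were near the background. In macrophages positive rows outnumbered negative ones among older and young L1 rows, and negative ones were the more numerous among other LINE rows. These differences between lists were not tested.

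Many older L1 rows that did not pass were measured closely enough to bound their values. The 95% interval (the log2 fold change ± 1.96 SE) lay wholly within 0.5 on either side of 0 for 77 of the 101 rows that did not pass in ESCs. It did so for 58 of 83 in macrophages and for 35 of 111 in NPCs. Over all repeat rows that did not pass it was 491 of 881, 388 of 931 and 215 of 1102. For the other older L1 rows that did not pass, a difference beyond 0.5 was not excluded by the interval. If the fold changes were shrunken towards 0, as described below, intervals of rows with few reads may lie too near 0. Weighted by base mean, so that abundant rows count most, the mean log2 fold change of the tested older L1 rows was -0.04 for ESCs, 0.03 for macrophages and -0.08 for NPCs.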

How the data were processed

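Poly(A)-selected, stranded, paired-end RNA-seq libraries were made, per the labels' protocols. The submitters' processing notes name TopHat2 2.0.13 and Bowtie2, Trim Galore, featureCounts, deepTools and DESeq2, with build mm10. Roles and settings, the treatment of reads that match several copies, and use of strand are not given in the sources used here. Per the file headers, the authors deposited 1 DESeq2 result per cell type: base mean (a signal, counts divided by size factors), log2 fold change and its standard error (log2), Wald statistic (a score), p-value and adjusted p-value. The depth per library is unknown. In all tested rows the authors' adjusted p-value equalled a Benjamini-Hochberg adjustment of their p-values over these rows, within a relative tolerance of 1e-06. The standard error of older L1 rows was at most 0.43 even at base means under 5, which points to fold changes shrunken towards 0. No source used here states this. Rows with few reads may for this reason be listed too near 0.

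No table holds values per library, so no count model was fitted and the authors' adjusted p under 0.05 was used. Folds, 95% intervals, shares and differences between tables were computed with Python 3.11.15, pandas 2.3.3 and SciPy 1.17.1. The test of a difference was run on simulated data with independent normal errors of the listed size, as the test assumes. Such a run cannot show how the test fares with shrunken fold changes or shared reads. Named rows were those past the test (at most 30 per table, smallest adjusted p first), the most abundant row of each subgroup, rows past the test in several tables, and up to 15 differing rows per pair of cell types. The members and lists were chosen with earlier results of these data known. Alternatives changed the threshold, the centring, the filter on base mean, the weighting and the orientation of a table; weighting by base mean was added after seeing the data.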

Additional observations from a re-analysis of the deposited data

Results flagged for a closer look

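The following older L1 rows had log2 fold changes that differed between 2 cell types at an adjusted p under 0.05 of the normal test of the difference (Benjamini-Hochberg over all rows tested in both tables). Values are the first cell type minus the second on the log2 scale, and they take the tables as oriented alike. Dose, and in pairs with macrophages strain, changes with cell type and cannot be told apart from it.

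For ESCs minus macrophages the L1M rows were L1MEg2 at -1.54, L1MEg at -1.05, L1MEj at -0.97, L1MB1 at -0.73, L1MEd at -0.69, L1MC5 at -0.68, L1MD3 at -0.59, L1MB7 at -0.39, L1M3 at -0.36 and L1MB3 at -0.29. HAL1M8 was at -0.89. The Lx rows were Lx2A at -0.88, Lx2A1 at -0.76, Lx6 at -0.41 and, with the higher value in ESCs, Lx3_Mus at 0.47. A further 7 rows differed by absolute values between 0.22 and 1.29.

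For ESCs minus NPCs the rows were L1M3c at 1.17, L1ME2 at 1.02, L1ME3A at 0.83, L1MEb at 0.82 and L1MB1 at -0.50. For macrophages minus NPCs they were L1MEg at 1.73, L1M3de at 0.99, L1MEb at 0.98, L1ME2 at 0.93, L1ME3A at 0.68, L1MEd at 0.61, L1MB3 at 0.61, L1M3 at 0.45 and L1MB7 at 0.41.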

How the results depend on the processing

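With an adjusted p under 0.01, 5 older L1 rows were negative in ESCs, 1 was negative in macrophages, and 3 were negative and 0 positive in NPCs (5 positive by the unadjusted DESeq2 p under 0.05). Centring on the median of tested rows left 3 negative in macrophages, without Lx7, L1ME2z and L1M3a. A base mean of at least 50 gave 2 positive rows in NPCs. Turning the sign of 1 table gave 8 differing rows between ESCs and NPCs and 16 between macrophages and NPCs. It turned the difference of Lx3_Mus between ESCs and macrophages to -0.56, and those of L1ME2, L1MB3, L1ME3A and L1MEb between macrophages and NPCs to -0.45, -0.12, -0.98 and -0.19. The alternative's own construction causes these turns, and the cause of the other changes was not tested. The other counts stayed within 1.5 times and each median moved by less than the median SE. No paired analysis was possible because the tables carry no values per library, and leaving out replicates was not run for the same reason.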

Other observations

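Lx5 and Lx4B, 2 of the most abundant older L1 rows, had wider errors than Lx7, Lx8 and Lx9. The latter rows, which also have many reads, were chosen for this comparison after their values were seen. In NPCs Lx5 and Lx4B had base means of 26089 and 11314, against 7000, 13883 and 9159 for Lx7, Lx8 and Lx9. Per the authors' deposited tables the SEs of Lx5 and Lx4B were 0.10 and 0.10 in ESCs, 0.13 and 0.12 in macrophages and 0.30 and 0.30 in NPCs. Those of Lx7, Lx8 and Lx9 were 0.06, 0.06 and 0.06 in ESCs, 0.06, 0.04 and 0.04 in macrophages and 0.23, 0.14 and 0.19 in NPCs. Wide errors were not particular to Lx5 and Lx4B in NPCs, where Lx3B, Lx6 and Lx2B2 had SEs of 0.38, 0.31 and 0.29 at smaller base means. Lx5 and Lx4B both lay below 0 in all 3 tables, past the test in ESCs only. Other rows, among them Lx, Lx2B2 and X9_LINE, also lay below 0 in all 3, and such rows were not counted over all repeats. A shared sign means a shared direction only if the tables take the same group as the numerator, which is not given.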
